A study of Rattus norvegicus with 24 samples.

Results

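The 37 genes described here encode the subunits of the voltage-gated sodium and calcium channels and the proteins named after the calcium channel gamma subunit. They were taken by symbol from the 18161 genes that an array of rat cerebellum measured with a probe set of 1 gene symbol, that is, all symbols beginning with Cacna, Cacnb or Cacng, or made of Scn, a number and the letter a or b. They comprise 8 sodium channel alpha subunits, 4 sodium channel beta subunits, 9 calcium channel alpha1 subunits, 4 alpha2delta subunits, 4 calcium channel beta subunits and 8 gamma subunits or transmembrane AMPA receptor regulatory proteins (TARPs). Each of the 37 had 1 probe set with its symbol alone. The study modelled hepatic encephalopathy, the disturbance of brain function that accompanies liver failure or a shunt around the liver, in Sprague-Dawley rats, and measured the cerebellum on 24 Affymetrix arrays.

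The 5 groups were defined by surgery and by what was infused. Sham rats (5 arrays) had control surgery only. PCA rats (5 arrays) had a portocaval anastomosis, a surgical shunt that leads portal blood past the liver, and were sampled 6 months later. The other 3 groups also carried the shunt for 6 months and received 10 infusions, 1 every 2 weeks. PCA+NH3 rats (5 arrays) received ammonium acetate, given at 20 μl per minute over 3 h. PCA+LPS rats (5 arrays) received lipopolysaccharide, a bacterial cell wall component that provokes inflammation, at 5 mg per kg. PCA+NH3+LPS rats (4 arrays) received both. A vehicle infusion for the Sham and PCA rats, the age and sex of the rats, and whether an array held RNA of 1 rat were not stated in the labels, so the p-values measure the spread between these arrays.

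A sodium channel alpha subunit forms the pore that carries the rising phase of the action potential, and beta subunits set its gating and its place in the membrane. A calcium channel alpha1 subunit forms a pore that opens on depolarization and couples activity to transmitter release, firing patterns and gene expression, while alpha2delta and beta subunits govern how many channels reach the membrane. In the cerebellum, mutations of several of these genes in mice or people cause ataxia or episodic loss of coordination, and Purkinje cells rely on them for their rapid spontaneous firing.

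Expression values are log2 values, so a difference of 1 is a doubling, and they were deposited in steps of 0.1. A level depends on the probes of a probe set, so differences are taken between arrays for the same gene. Levels of different genes are set side by side only as a rough guide to which are dim. The labelled tissue was checked against cell type markers. All 12 Purkinje cell markers had mean levels between 8.33 and 12.1, and all 12 granule cell markers lay between 9.45 and 12.28. Of 6 forebrain markers, 5 lay between 4.06 and 5.53, and Neurod6 stood at 8.82. Some arrays stood apart. The mean of 12 choroid plexus markers, each centred on its mean over all arrays, was 1.14, 2.20 and 2.92 in PCA+NH3 arrays 1, 2 and 5 and 2.75 in PCA+NH3+LPS array 3, against -0.81 to 0.41 in the other arrays. The mean of 14 brainstem markers was 1.20 in Sham array 1, 0.69 in PCA array 3 and 0.78 in PCA+NH3 array 1, against -0.33 to 0.46 in the others. Other lists varied too. The mean of 12 myelin markers was 1.11 in Sham array 1, against -0.47 to 0.54 in the others. That of 8 meninges and fibroblast markers ran from -1.36 in Sham array 2 to 0.91 in Sham array 5. No arrays were left out on account of these other lists. In such tissue samples, fewer cells of a type and less RNA per cell cannot be told apart.

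Among the sodium channel alpha subunits, Scn1a and Scn8a, both widely expressed in adult central neurons, had mean levels over the 24 arrays of 8.99 (8.7 to 9.3) and 9.02 (8.8 to 9.2). Scn3a, which is mainly expressed in the developing brain, had a mean of 5.28 (5.1 to 5.8). Scn4a of skeletal muscle had a mean of 4.83 (4.3 to 5.4). Scn7a, a sodium-sensing relative of these channels, stood at 3.63 (3.1 to 4.3). Scn10a and Scn11a of peripheral sensory neurons stood at 3.44 (3.2 to 3.8) and 3.23 (3.0 to 3.4). Probe sets that list a channel symbol together with another symbol are not counted among the 37. The one listed for Scn2a1 and Scn3a had group means of 10.62 in Sham, 10.84 in PCA, 10.66 in PCA+NH3, 10.82 in PCA+LPS and 10.85 in PCA+NH3+LPS. The one listed for Scn7a and RGD1560831 had means of 5.64 (SD 0.29) in Sham, 5.86 (SD 0.38) in PCA and 5.84 (SD 0.27) in PCA+NH3. In PCA+LPS it had 5.72 (SD 0.22) and in PCA+NH3+LPS 5.8 (SD 0.08).

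Of the sodium channel beta subunits, Scn2b had a mean of 10.05 (9.3 to 10.3). Scn4b, whose product supports the resurgent sodium current of Purkinje cells, had a mean of 7.53 (6.8 to 8.7), and Scn3b had a mean of 5.86 (5.0 to 7.4). Scn2b and Scn4b are neighbours on chromosome 8 among the protein-coding genes of the RefSeq annotation GRCr8. Their levels were not positively correlated over the arrays, as described with the between-array differences. Their upstream sequences are shown as a description, since the pair differs in base composition. Whether base composition bears on their levels was not tested. Each run holds the 250 bases before the RefSeq transcription start on the plus strand, chr8:54343623-54343872 for Scn4b and chr8:54322133-54322382 for Scn2b, 5′ to 3′, with CG dinucleotides in capitals.
Scn4b: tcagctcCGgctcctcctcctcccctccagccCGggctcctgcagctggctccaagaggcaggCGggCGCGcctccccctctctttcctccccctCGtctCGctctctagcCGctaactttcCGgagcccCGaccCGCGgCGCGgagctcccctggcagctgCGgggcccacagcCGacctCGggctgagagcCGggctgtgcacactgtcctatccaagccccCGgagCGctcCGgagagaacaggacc
Scn2b: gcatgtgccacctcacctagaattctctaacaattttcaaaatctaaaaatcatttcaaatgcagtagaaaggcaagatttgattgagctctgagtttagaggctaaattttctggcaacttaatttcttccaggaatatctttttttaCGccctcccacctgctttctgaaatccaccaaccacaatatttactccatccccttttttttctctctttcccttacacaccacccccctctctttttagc
The Scn4b run holds 21 CG dinucleotides and the Scn2b run 1. Over the full 300-base window of the RefSeq promoter table, which also takes in the first 50 bases of the transcript, Scn4b had a GC content of 70.0% and Scn2b of 39.0%, against a median of 52.3% over 27457 promoters of that length. A GC content at or under that of Scn4b was found in 91.6% of those promoters, and at or under that of Scn2b in 10.7%. The table held 24 of the 37 genes. The GC box letters GGGCGG, searched on both strands, were in the windows of 13 of these 24 and in 34.9% of all promoters, and they were in neither Scn4b nor Scn2b. The letters TATAAA were in 1 of the 24, Cacng2, and in 14.3% of all promoters. CACGTG was in 0 of the 24 and in 6.7% of all promoters. The looser CANNTG, which includes CACGTG, was in 17 of the 24 and in 71.6% of all promoters. These matches describe letters only.

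Of the calcium channel alpha1 subunits, Cacna1a, which forms the P/Q-type channel of Purkinje cells and most central synapses, had a mean of 10.78 (10.4 to 11.0). Cacna1b of the N-type channel had a mean of 8.41 (8.2 to 8.6) and Cacna1e of the R-type channel of 9.13 (8.7 to 9.4). Among L-type subunits, Cacna1c stood at 7.72 (7.4 to 8.1), Cacna1d at 8.39 (8.1 to 8.8) and the retinal Cacna1f at 4.64 (4.5 to 4.9). The T-type subunits, which open near the resting potential and support burst firing, were Cacna1g at 9.22 (8.5 to 9.9), Cacna1h at 5.36 (4.9 to 6.2) and Cacna1i at 8.30 (7.7 to 9.1).

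Among the alpha2delta subunits, Cacna2d1 had a mean of 8.51 (7.9 to 8.8) and Cacna2d2, whose loss causes ataxia in ducky mice, of 9.52 (9.3 to 9.8). Cacna2d3 had a mean of 8.69 (8.5 to 9.0) and the retinal Cacna2d4 of 4.30 (4.0 to 4.5). Of the calcium channel beta subunits, Cacnb4, whose loss causes ataxia and seizures in lethargic mice, had a mean of 11.23 (10.8 to 11.5). Cacnb1 stood at 7.78 (7.4 to 8.1), Cacnb2 at 7.72 (7.4 to 8.1) and Cacnb3 at 9.03 (8.4 to 9.4). In the gamma family, Cacng2, or stargazin, brings AMPA receptors to the synapses of granule cells and had a mean of 10.16 (9.9 to 10.3). The related TARPs Cacng3, Cacng4 and Cacng8 stood at 7.35 (7.0 to 7.7), 7.73 (7.2 to 8.3) and 5.92 (5.6 to 6.4). The type II TARPs Cacng5 and Cacng7 stood at 7.07 (6.5 to 7.6) and 10.70 (10.4 to 11.0). Cacng1, the gamma subunit of the skeletal muscle channel, stood at 4.35 (4.0 to 4.6), and its relative Cacng6 at 3.72 (3.3 to 4.1). Altogether, 28 of the 37 had a mean of at least 5 and 9 were under it.

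**Figure D1:**
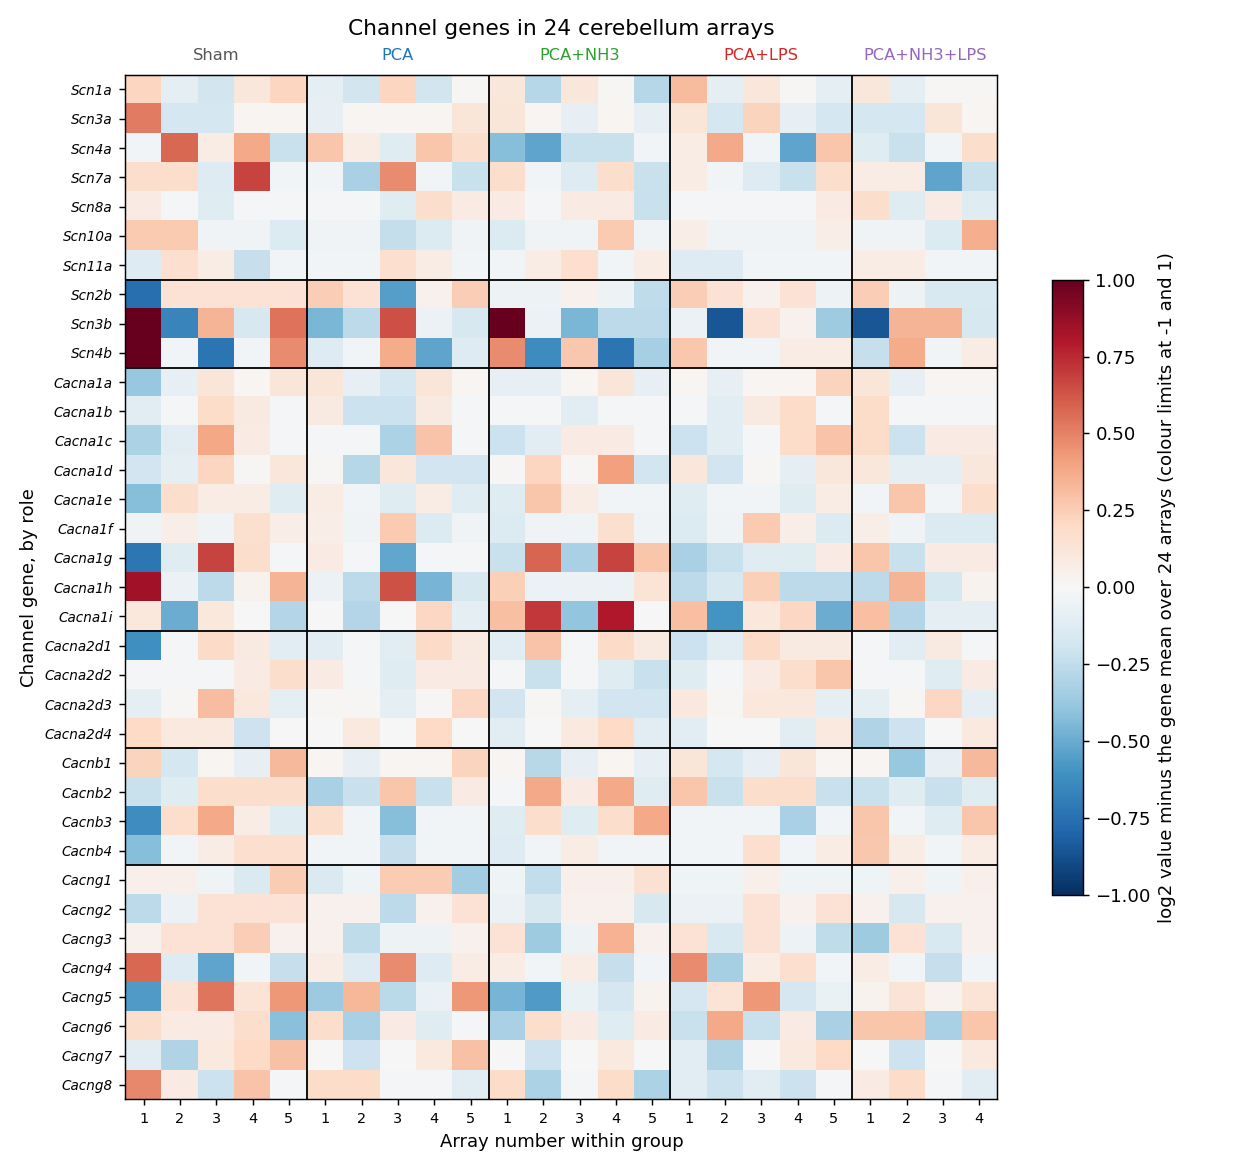
Each row is 1 of 35 channel genes and each column an array, grouped by treatment. Colour gives the log2 value minus the gene's mean over the 24 arrays, with the colour scale ending at -1 and 1. Single arrays, such as Sham array 1 for Scn3b and Scn4b, stand out more than whole groups do.

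No channel gene differed between groups after adjustment for the 18161 genes tested. A moderated F-test of limma, which asks whether any of the 5 groups differs, called 0 of 37 at an adjusted p under 0.05, where 0.011% of all genes were called. At an unadjusted p under 0.05 it also called 0 of 37, where 4.76% of all genes were called. No channel gene had groups that did not overlap in any comparison of groups. Such genes were rare over the whole array, so this is near the share of all genes. Of the 18161, 16 lay wholly above and 12 wholly below for PCA against Sham. The most were 68 above and 79 below, for PCA+NH3+LPS against PCA. For each comparison, the genes of smallest p are given with their values, as is how many of the 37 had a 95% interval wholly inside 0.5 on the log2 scale in either direction, a 1.41-fold change. Values are listed in the order of the array numbers in the labels. The labels do not say whether arrays of the same number share an animal, a batch or a day, and the fit took no account of the numbers. Same-numbered arrays of different groups passed a correlation of 0.1 more often than others did. Of 46 such pairs, 23 (50%) had deviations from their group means that correlated above 0.1, against 44 of 184 other pairs (23.9%). The ranges were alike, at -0.47 to 0.57 for the same-numbered pairs and -0.45 to 0.62 for the others. Among the channel genes, Cacng7 and Cacnb1 were lowest in array 2 of each of the 5 groups, and Cacna1i in 4 of them. All other channel genes had this in 2 groups or fewer. These genes were looked up after their values were seen, for array number 2 only. The share over all genes was not counted, so this is a description only.

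The first question was what the shunt does on its own. Between PCA and Sham, 0 of 37 genes passed the adjusted threshold (0% of all genes). Without adjustment, at p under 0.05, 0 of 37 were higher (1.68% of all genes) and 0 were lower (1.91%). The median difference of the 37 was -0.02, with 9 above 0 and 27 below, beside a median of 0 over all genes. Of all genes, 46.1% lay above 0. The 37 genes share the same arrays, so their signs are not independent and were not tested. The interval lay within 0.5 in either direction for 32 of the 37 (91.1% of all genes), and the widest interval reached 1.08, that of Scn3b. Scn10a had the smallest p. Scn10a read 3.7, 3.7, 3.4, 3.4 and 3.3 in Sham and 3.4, 3.4, 3.2, 3.3 and 3.4 in PCA. For Scn10a the values were 3.3, 3.4, 3.4, 3.7 and 3.4 in PCA+NH3, 3.5, 3.4, 3.4, 3.4 and 3.5 in PCA+LPS and 3.4, 3.4, 3.3 and 3.8 in PCA+NH3+LPS. The PCA arrays of this sensory neuron channel lay within the range of the Sham arrays or 0.1 under it. The difference was -0.16 (SE 0.094, limma adjusted p = 0.99), and -0.075 (SE 0.10) without the 3 arrays rich in brainstem markers. Cacng3 read 7.4, 7.5, 7.5, 7.6 and 7.4 in Sham and 7.4, 7.1, 7.3, 7.3 and 7.4 in PCA. For Cacng3 the values were 7.5, 7, 7.3, 7.7 and 7.4 in PCA+NH3, 7.5, 7.2, 7.5, 7.3 and 7.1 in PCA+LPS and 7, 7.5, 7.2 and 7.4 in PCA+NH3+LPS. Each Sham array of this TARP gene lay between 7.4 and 7.6, and 2 of 5 PCA arrays reached that span. The PCA minus Sham difference was -0.18 (SE 0.11, limma adjusted p = 0.99). Scn7a read 3.8, 3.8, 3.5, 4.3 and 3.6 in Sham and 3.6, 3.3, 4.1, 3.6 and 3.4 in PCA. For Scn7a the values were 3.8, 3.6, 3.5, 3.8 and 3.4 in PCA+NH3, 3.7, 3.6, 3.5, 3.4 and 3.8 in PCA+LPS and 3.7, 3.7, 3.1 and 3.4 in PCA+NH3+LPS. Sham array 4 and PCA array 3 held the high values of this dim probe set. The difference of Scn7a between PCA and Sham was -0.20 (SE 0.15), and Cacna1h differed by -0.24 (SE 0.19), both with an adjusted p of 0.99 by limma. Cacna1h read 6.2, 5.3, 5.1, 5.4 and 5.7 in Sham and 5.3, 5.1, 6, 4.9 and 5.2 in PCA. For Cacna1h the values were 5.6, 5.3, 5.3, 5.3 and 5.5 in PCA+NH3, 5.1, 5.2, 5.6, 5.1 and 5.1 in PCA+LPS and 5.1, 5.7, 5.2 and 5.4 in PCA+NH3+LPS. Sham array 1 and PCA array 3, which stood apart in brainstem markers, were the highest 2 of the 24 for this T-type subunit. Single arrays moved both differences by more than 1.5 times. For Cacna1h the difference was -0.075 without Sham array 1, -0.14 without PCA array 4 and -0.415 without PCA array 3. For Scn7a it was -0.075 without Sham array 4, -0.125 without PCA array 2 and -0.325 without PCA array 3.

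Setting all 4 PCA groups together against Sham, 0 of 37 passed the adjusted threshold (0.00551% of all genes). At an unadjusted p under 0.05, 0 were higher (2.48% of all genes) and 0 lower (3.46%). The median difference was -0.04, with 11 above 0 and 26 below, beside -0.0025 over all genes, of which 48.8% lay above 0. By role, the medians were -0.06 for sodium alpha, -0.12 for sodium beta, -0.0025 for calcium alpha1, -0.05 for alpha2delta, -0.02 for calcium beta and -0.04 for the gamma family. The smallest p values belonged to Scn7a (-0.23, SE 0.12, limma adjusted p = 0.85), Cacng3 (-0.16, SE 0.089, adjusted p = 0.86), Cacng8 (-0.15, SE 0.093, adjusted p = 0.86) and Scn4a (-0.20, SE 0.12, adjusted p = 0.86). Unlike the dim probe set of Scn7a alone, the one shared by Scn7a and RGD1560831 had its lowest group mean in Sham. The shared probe set was not tested. Here 34 of 37 intervals lay within 0.5 in either direction (94.9% of all genes).

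Repeated ammonia infusion was compared with the shunt alone. Between PCA+NH3 and PCA, 0 of 37 passed the adjusted threshold (0% of all genes). Without adjustment, at p under 0.05, 0 were higher (2.09% of all genes) and 1 was lower (2.9%), Scn4a of the skeletal muscle sodium channel. Scn4a read 4.8, 5.4, 4.9, 5.2 and 4.6 in Sham and 5.1, 4.9, 4.7, 5.1 and 5 in PCA. For Scn4a the values were 4.4, 4.3, 4.6, 4.6 and 4.8 in PCA+NH3, 4.9, 5.2, 4.8, 4.3 and 5.1 in PCA+LPS and 4.7, 4.6, 4.8 and 5 in PCA+NH3+LPS. The PCA+NH3 arrays were low for Scn4a, with 4 of 5 below every PCA array, but PCA+NH3 array 5 reached 4.8 and overlapped the PCA array at 4.7. The difference between PCA+NH3 and PCA was -0.42 (95% interval -0.73 to -0.11, SE 0.15, limma adjusted p = 0.95). Against Sham, with the same PCA+NH3 arrays, it was -0.44 (SE 0.15, limma adjusted p = 0.71). Without the arrays rich in choroid plexus markers, which leaves 2 PCA+NH3 arrays, the difference from PCA was -0.36 (SE 0.21), outside the unadjusted threshold. Scn4a was among the 9 dim genes, and markers of skeletal muscle lay between 4.14 and 5.88.

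The next smallest p values in this comparison were those of Cacna2d3, Cacna1d and Cacna2d2. The alpha2delta genes Cacna2d2 and Cacna2d3 had low values in PCA+NH3. Cacna2d2 read 9.5, 9.5, 9.5, 9.6 and 9.7 in Sham and 9.6, 9.5, 9.4, 9.6 and 9.6 in PCA. For Cacna2d2 the values were 9.5, 9.3, 9.5, 9.4 and 9.3 in PCA+NH3, 9.4, 9.5, 9.6, 9.7 and 9.8 in PCA+LPS and 9.5, 9.5, 9.4 and 9.6 in PCA+NH3+LPS. PCA+NH3 arrays 2 and 5, which were rich in choroid plexus markers, held the lowest values of Cacna2d2 at 9.3. The PCA+NH3 minus PCA difference was -0.14 (SE 0.074, limma adjusted p = 0.98), and it was -0.09 (SE 0.10) without the arrays rich in choroid plexus markers. Over the 24 arrays Cacna2d2 had a Pearson correlation of -0.62 with the choroid plexus marker mean (permutation p = 0.0012, 0.0093 after adjustment over 259 relations, Spearman -0.50, permutation p = 0.013, adjusted p = 0.096). Leaving out the 2 arrays richest in those markers gave -0.50, and it was the only one of the 37 genes with an adjusted p under 0.05 for that list. The part of those arrays in the difference was not tested further. Cacna2d3 read 8.6, 8.7, 9, 8.8 and 8.6 in Sham and 8.7, 8.7, 8.6, 8.7 and 8.9 in PCA. For Cacna2d3 the values were 8.5, 8.7, 8.6, 8.5 and 8.5 in PCA+NH3, 8.8, 8.7, 8.8, 8.8 and 8.6 in PCA+LPS and 8.6, 8.7, 8.9 and 8.6 in PCA+NH3+LPS. For Cacna2d3, 3 of 5 PCA+NH3 arrays lay at 8.5, below all arrays of PCA. The difference from PCA was -0.16 (SE 0.081, limma adjusted p = 0.98), and -0.17 (SE 0.10) without the arrays rich in choroid plexus markers. Cacna1d read 8.2, 8.3, 8.6, 8.4 and 8.5 in Sham and 8.4, 8.1, 8.5, 8.2 and 8.2 in PCA. For Cacna1d the values were 8.4, 8.6, 8.4, 8.8 and 8.2 in PCA+NH3, 8.5, 8.2, 8.4, 8.3 and 8.5 in PCA+LPS and 8.5, 8.3, 8.3 and 8.5 in PCA+NH3+LPS. PCA+NH3 array 4 held the highest Cacna1d value of the 24. The difference of this L-type subunit from PCA was 0.20 (SE 0.10, limma adjusted p = 0.98), and 0.12 without that array. It was 0.32 (SE 0.13, limma adjusted p = 1) without the arrays rich in choroid plexus markers, which leaves 2 PCA+NH3 arrays, array 4 among them. Without the arrays rich in brainstem markers it was 0.275 (SE 0.11, limma adjusted p = 0.57). Its unadjusted p was under 0.05 in both of these settings. Over all 37 the median difference was -0.02, with 16 above 0 and 19 below, beside a median of 0 over all genes, of which 42.3% lay above 0. Intervals within 0.5 in either direction numbered 31 of 37 (90.5% of all genes).

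The ammonia factor set both ammonia groups against the PCA and PCA+LPS groups, which uses 19 arrays. At the adjusted threshold 0 of 37 passed (0.0165% of all genes). At an unadjusted p under 0.05, 0 were higher (2.66% of all genes) and 2 were lower (2.93%). These were Scn4a, with a difference of -0.25 (SE 0.11, limma adjusted p = 0.88), and Cacna2d2, with -0.12 (SE 0.054, limma adjusted p = 0.88). Neither had an unadjusted p under 0.05 without the arrays rich in choroid plexus markers, where Scn4a differed by -0.23 and Cacna2d2 by -0.08. The channel gene under 0.05 in that setting was Cacna1d, which was higher by 0.19 (SE 0.088, limma adjusted p = 0.999). Cacna2d3 differed by -0.10 (SE 0.059, limma adjusted p = 0.95). Cacna1g of the T-type channel differed by 0.25 (SE 0.15, limma adjusted p = 0.95). Of the 37 intervals, 35 lay within 0.5 in either direction (96.1% of all genes). Cacna1g read 8.5, 9.1, 9.9, 9.4 and 9.2 in Sham and 9.3, 9.2, 8.7, 9.2 and 9.2 in PCA. For Cacna1g the values were 9, 9.8, 8.9, 9.9 and 9.5 in PCA+NH3, 8.9, 9, 9.1, 9.1 and 9.3 in PCA+LPS and 9.5, 9, 9.3 and 9.3 in PCA+NH3+LPS. PCA+NH3 arrays 2 and 4 were high for Cacna1g at 9.8 and 9.9, as was Sham array 3 at 9.9, so the ammonia arrays did not stand apart from the rest.

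Between PCA+NH3 and Sham, 0 of 37 passed the adjusted threshold (0% of all genes). Without adjustment, at p under 0.05, 0 were higher (2.49% of all genes) and 4 were lower (3.57%), namely Scn4a, Cacna2d3, Cacna2d2 and Cacng5. Cacna2d3 differed by -0.18 (SE 0.081, limma adjusted p = 0.82) and Cacna2d2 by -0.16 (SE 0.074, limma adjusted p = 0.82). Cacng5 read 6.5, 7.2, 7.6, 7.2 and 7.5 in Sham and 6.7, 7.4, 6.8, 7 and 7.5 in PCA. For Cacng5 the values were 6.6, 6.5, 7, 6.9 and 7.1 in PCA+NH3, 6.9, 7.2, 7.5, 6.9 and 7 in PCA+LPS and 7.1, 7.2, 7.1 and 7.2 in PCA+NH3+LPS. For Cacng5, which encodes a type II TARP, Sham array 1 at 6.5 lay as low as the lowest PCA+NH3 array while the other Sham arrays lay between 7.2 and 7.6. The difference between PCA+NH3 and Sham was -0.38 (95% interval -0.75 to -0.01, SE 0.18, limma adjusted p = 0.82). It was -0.25 (SE 0.24) without the arrays rich in choroid plexus markers and -0.50 (SE 0.16) without the 3 arrays rich in brainstem markers. The 2 comparisons of PCA+NH3 share its 5 arrays, so their differences are not separate observations.

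**Figure D2:**
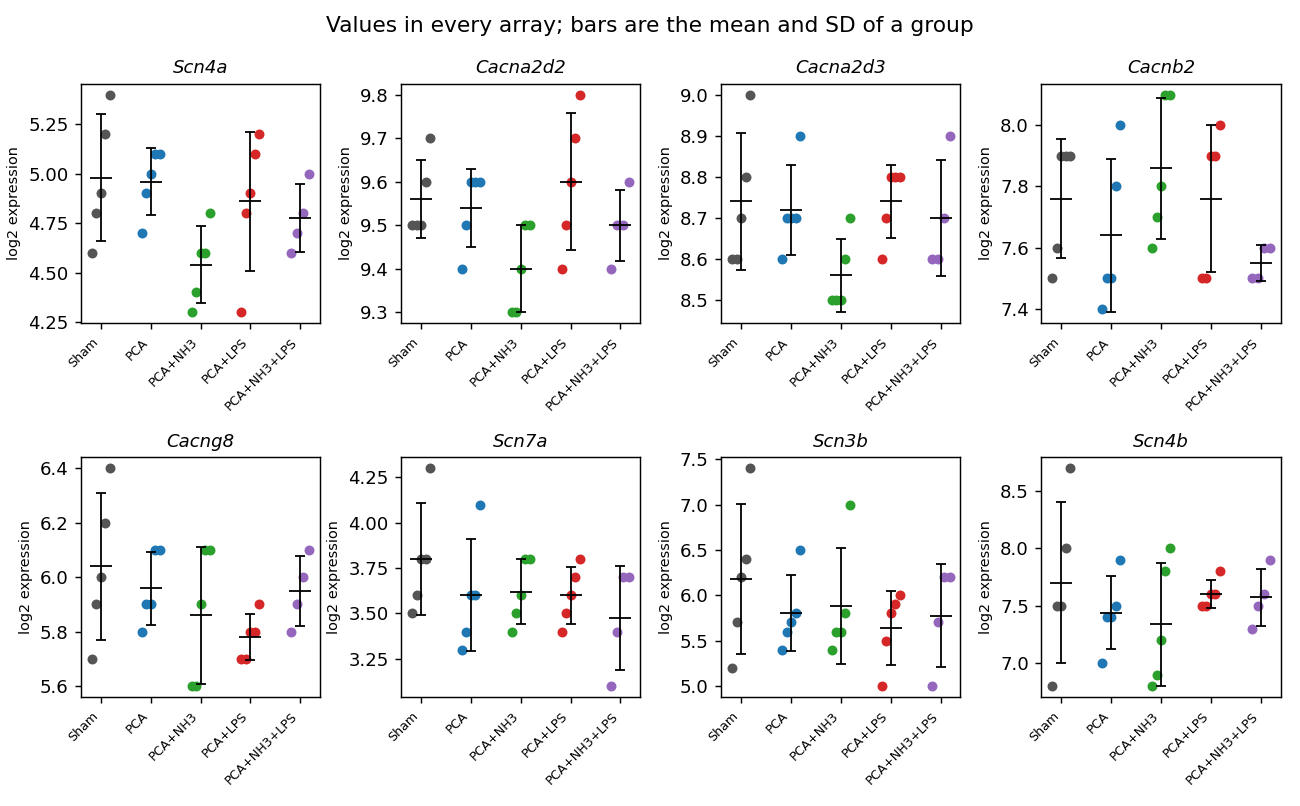
Points are single arrays, with the log2 expression value on the vertical axis and the 5 groups on the horizontal axis, for 8 channel genes. Horizontal bars give the group mean and vertical bars the SD (n = 5, and 4 for PCA+NH3+LPS). The vertical axis differs between panels and does not start at 0. The PCA+NH3 arrays lie low for Scn4a but overlap the PCA arrays at 4.8, and the wide SD of Scn3b and Scn4b in Sham comes with array 1 at 7.4 and 8.7.

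Repeated lipopolysaccharide was likewise compared with the shunt alone. Between PCA+LPS and PCA, 0 of 37 passed the adjusted threshold (0% of all genes), and at an unadjusted p under 0.05, 0 were higher (2% of all genes) and 0 lower (2.01%). The median difference was 0, as over all genes, with 16 of the 37 above 0 and 18 below, where 45.8% of all genes lay above 0. Intervals within 0.5 in either direction numbered 35 of 37 (91.2% of all genes). The smallest p was that of Cacng8, a TARP gene. Cacng8 read 6.4, 6, 5.7, 6.2 and 5.9 in Sham and 6.1, 6.1, 5.9, 5.9 and 5.8 in PCA. For Cacng8 the values were 6.1, 5.6, 5.9, 6.1 and 5.6 in PCA+NH3, 5.8, 5.7, 5.8, 5.7 and 5.9 in PCA+LPS and 6, 6.1, 5.9 and 5.8 in PCA+NH3+LPS. PCA+LPS arrays of Cacng8 lay between 5.7 and 5.9, within a span of 0.2, and overlapped PCA at 5.8 and 5.9. The difference from PCA was -0.18 (SE 0.12, limma adjusted p = 0.99). From Sham it was -0.26 (95% interval -0.50 to -0.02, SE 0.12, limma adjusted p = 0.62), and -0.17 (SE 0.11) without the arrays rich in brainstem markers, of which Sham array 1 held the highest Cacng8 value. Scn11a read 3.1, 3.4, 3.3, 3 and 3.2 in Sham and 3.2, 3.2, 3.4, 3.3 and 3.2 in PCA. For Scn11a the values were 3.2, 3.3, 3.4, 3.2 and 3.3 in PCA+NH3, 3.1, 3.1, 3.2, 3.2 and 3.2 in PCA+LPS and 3.3, 3.3, 3.2 and 3.2 in PCA+NH3+LPS. Scn11a, also of sensory neurons, lay between 3.0 and 3.4 on all arrays. The difference of Scn11a between PCA+LPS and PCA was -0.10 (SE 0.069, limma adjusted p = 0.99). Cacnb4 read 10.8, 11.2, 11.3, 11.4 and 11.4 in Sham and 11.2, 11.2, 11, 11.2 and 11.2 in PCA. For Cacnb4 the values were 11.1, 11.2, 11.3, 11.2 and 11.2 in PCA+NH3, 11.2, 11.2, 11.4, 11.2 and 11.3 in PCA+LPS and 11.5, 11.3, 11.2 and 11.3 in PCA+NH3+LPS. Sham array 1 and PCA array 3 held the lowest 2 values of Cacnb4, 10.8 and 11.0. The PCA+LPS minus PCA difference of Cacnb4 was 0.10 (SE 0.090), and that of Cacna1b was 0.08 (SE 0.075), both with a limma adjusted p of 0.99. Cacna1b read 8.3, 8.4, 8.6, 8.5 and 8.4 in Sham and 8.5, 8.2, 8.2, 8.5 and 8.4 in PCA. For Cacna1b the values were 8.4, 8.4, 8.3, 8.4 and 8.4 in PCA+NH3, 8.4, 8.3, 8.5, 8.6 and 8.4 in PCA+LPS and 8.6, 8.4, 8.4 and 8.4 in PCA+NH3+LPS. The 24 values of this N-type subunit covered 0.4 in all.

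For the LPS factor, which set both LPS groups against the PCA and PCA+NH3 groups, 0 of 37 passed the adjusted threshold (0.0165% of all genes). At an unadjusted p under 0.05, 0 were higher (1.66% of all genes) and 0 lower (1.43%). The smallest p values were those of Cacnb4 at 0.11 (SE 0.066), Cacna2d4 at -0.10 (SE 0.062), Cacna2d2 at 0.08 (SE 0.054) and Cacna1b at 0.075 (SE 0.055), all with a limma adjusted p of 0.997. Without the arrays rich in choroid plexus markers Cacna2d4 differed by -0.18 (SE 0.074, limma adjusted p = 0.999). The median was 0.005 beside 0.0025 over all genes, and 35 of 37 intervals lay within 0.5 in either direction (96.6% of all genes). Between PCA+LPS and Sham, 0 of 37 passed the adjusted threshold (0.033% of all genes). Without adjustment, at p under 0.05, 0 were higher (3.78% of all genes) and 1, Cacng8, was lower (3.71%). Cacna1h differed by -0.32 (SE 0.19, limma adjusted p = 0.72), Scn3b by -0.54 (SE 0.34, limma adjusted p = 0.75) and Cacng3 by -0.16 (SE 0.11, limma adjusted p = 0.78). Scn3b and Cacna1h were highest in Sham array 1. Without the 3 arrays rich in brainstem markers these differences were -0.155 (SE 0.13) for Cacna1h and -0.235 (SE 0.24) for Scn3b.

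The group that received both agents was compared with the shunt alone, with Sham, and with the sum of the single infusions. Between PCA+NH3+LPS and PCA, 0 of 37 passed the adjusted threshold (0% of all genes), and at an unadjusted p under 0.05, 0 were higher (2.03% of all genes) and 0 lower (2.13%). The smallest p values were those of Cacna2d4, Cacnb4, Scn10a and Cacna1e. Cacna2d4 differed by -0.16 (SE 0.090, limma adjusted p = 0.997), and Cacnb4 differed by 0.165 (SE 0.096, limma adjusted p = 0.997). Cacna2d4 read 4.5, 4.4, 4.4, 4.1 and 4.3 in Sham and 4.3, 4.4, 4.3, 4.5 and 4.3 in PCA. For Cacna2d4 the values were 4.2, 4.3, 4.4, 4.5 and 4.2 in PCA+NH3, 4.2, 4.3, 4.3, 4.2 and 4.4 in PCA+LPS and 4, 4.1, 4.3 and 4.4 in PCA+NH3+LPS. PCA+NH3+LPS array 1 held the lowest Cacna2d4 value, and arrays 3 and 4 of that group lay inside the PCA range. Scn10a differed by 0.135 (SE 0.10), or by 0.027 without PCA+NH3+LPS array 4, and Cacna1e of the R-type channel by 0.125 (SE 0.10), with a limma adjusted p of 0.997 for both. Cacna1e read 8.7, 9.3, 9.2, 9.2 and 9 in Sham and 9.2, 9.1, 9, 9.2 and 9 in PCA. For Cacna1e the values were 9, 9.4, 9.2, 9.1 and 9.1 in PCA+NH3, 9, 9.1, 9.1, 9 and 9.2 in PCA+LPS and 9.1, 9.4, 9.1 and 9.3 in PCA+NH3+LPS. Sham array 1 was the lowest of the 24 for Cacna1e. Between PCA+NH3+LPS and Sham, 0 of 37 passed the adjusted threshold (0% of all genes), and at an unadjusted p under 0.05, 0 were higher (1.73% of all genes) and 0 lower (2.28%). Scn7a differed by -0.325 (SE 0.16, limma adjusted p = 0.99), Cacng3 by -0.205 (SE 0.12), Cacna2d4 by -0.14 (SE 0.090) and Cacnb2 by -0.21 (SE 0.14). The intervals within 0.5 in either direction numbered 33 of 37 against PCA (89.9% of all genes) and 31 against Sham (89.0%).

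The interaction asks whether the group given both agents differs from PCA by more or less than the sum of the differences of the single infusions. For it, 0 of 37 passed the adjusted threshold (0% of all genes). At an unadjusted p under 0.05, 0 were higher (2.19% of all genes) and 1 was lower (1.54%), Cacnb2, a beta subunit of calcium channels in heart and brain. Cacnb2 read 7.5, 7.6, 7.9, 7.9 and 7.9 in Sham and 7.4, 7.5, 8, 7.5 and 7.8 in PCA. For Cacnb2 the values were 7.7, 8.1, 7.8, 8.1 and 7.6 in PCA+NH3, 8, 7.5, 7.9, 7.9 and 7.5 in PCA+LPS and 7.5, 7.6, 7.5 and 7.6 in PCA+NH3+LPS. The 4 PCA+NH3+LPS arrays of Cacnb2 lay at 7.5 or 7.6, while PCA+NH3 and PCA+LPS each had arrays at or above 7.9 as well as arrays at 7.6 or under. The interaction was -0.43 (95% interval -0.82 to -0.04, SE 0.19, limma adjusted p = 0.997), and without the 3 arrays rich in brainstem markers it was -0.56 (SE 0.18, limma adjusted p = 0.70). The next were Cacng8 at 0.27 (SE 0.17), Scn4a at 0.335 (SE 0.22) and Cacna1d at -0.18 (SE 0.15). The interaction is the least precise comparison, with 25 of 37 intervals within 0.5 in either direction (71.6% of all genes).

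**Figure D3:**
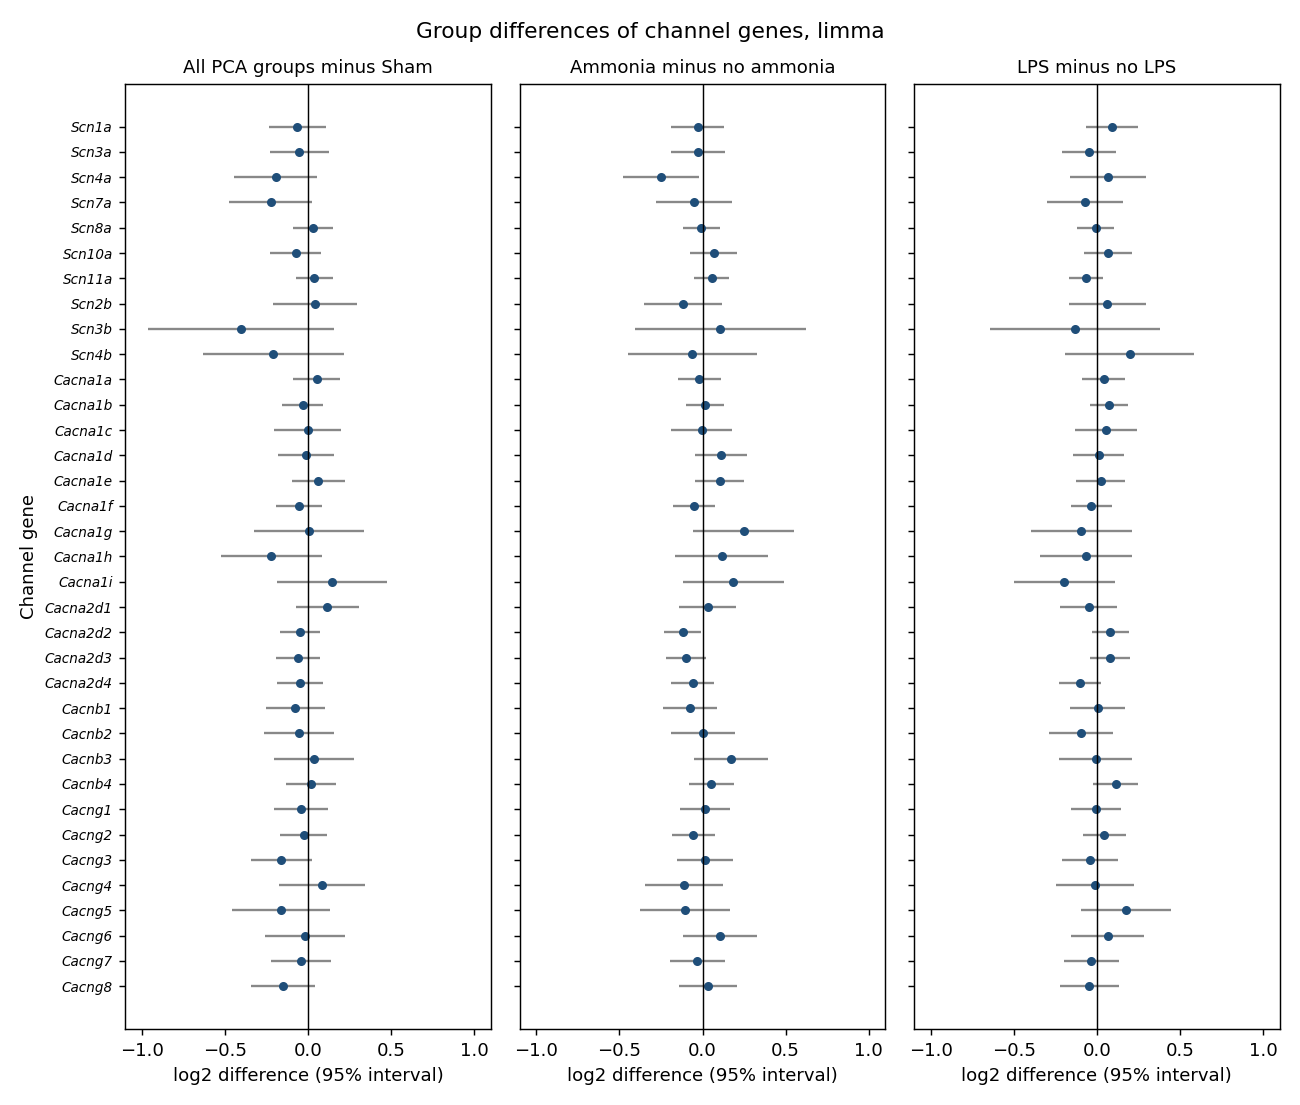
Points are log2 differences of 35 of the 37 channel genes with 95% intervals from limma, for all PCA groups against Sham, the ammonia factor and the LPS factor. Of the 35 intervals, 32, 33 and 33 lie wholly between -0.5 and 0.5, and the widest belong to Scn3b and Scn4b.

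Genes that work with these channels, such as the release machinery at calcium channels, ankyrins, fibroblast growth factor homologous factors and AMPA receptor subunits, were taken from a list of 58, of which 56 were measured. Of these, 0 passed the adjusted threshold in any of the comparisons, where at most 0.033% of all genes did. At an unadjusted p under 0.05, the most were found for PCA+NH3 against Sham. There 0 of 56 were higher (2.49% of all genes) and 6 were lower (3.57%). For PCA+NH3 against PCA, 1 was higher (2.09% of all genes) and 3 were lower (2.9%). The smallest p among the 56 was that of Unc13a, which encodes a protein that primes synaptic vesicles for release. Unc13a differed from PCA by -0.32 (SE 0.089, limma adjusted p = 0.62) in PCA+NH3, by -0.26 (SE 0.089, adjusted p = 0.99) in PCA+LPS and by -0.32 (SE 0.095, adjusted p = 0.88) in PCA+NH3+LPS. These 3 comparisons share the PCA arrays, which lay 0.20 (SE 0.089, limma adjusted p = 0.99) above Sham. Fgf11, a member of the homologous factors that bind sodium channels, differed by -0.38 (SE 0.11) between PCA+NH3 and PCA, with a limma adjusted p of 0.71. Camk2g, a calcium and calmodulin dependent kinase, differed by -0.32 (SE 0.11) between PCA+LPS and Sham, with a limma adjusted p of 0.50.

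Several channel genes varied widely between arrays of the same group. The pooled SD within groups had a median of 0.177 over the 37 and of 0.158 over all genes, and 23 of the 37 lay above the latter. Scn3b had an SD of 0.594, at percentile 99.0 of all genes, and Scn4b of 0.447, at percentile 97.5. Cacna1g and Cacna1i followed at 0.348 each and Cacna1h at 0.317. Of the 37, 2 were among the 5% of all genes with the widest SD, which is near that share. For 11 of the 37 the highest and the lowest array differed by 1 or more, which was not counted over all genes. Scn3b read 7.4, 5.2, 6.2, 5.7 and 6.4 in Sham and 5.4, 5.6, 6.5, 5.8 and 5.7 in PCA. For Scn3b the values were 7, 5.8, 5.4, 5.6 and 5.6 in PCA+NH3, 5.8, 5, 6, 5.9 and 5.5 in PCA+LPS and 5, 6.2, 6.2 and 5.7 in PCA+NH3+LPS. Sham array 1 and PCA+NH3 array 1 were highest for Scn3b, with PCA array 3 next, and these are the arrays rich in brainstem markers. Over the 24 arrays Scn3b had a correlation of 0.82 with the brainstem marker mean (permutation p = 2e-05, adjusted p = 0.0015, Spearman 0.67, permutation p = 0.00064, adjusted p = 0.024). It was 0.59 without Sham array 1 and PCA+NH3 array 1 and 0.46 without the 3 arrays. Scn4b read 8.7, 7.5, 6.8, 7.5 and 8 in Sham and 7.4, 7.5, 7.9, 7 and 7.4 in PCA. For Scn4b the values were 8, 6.9, 7.8, 6.8 and 7.2 in PCA+NH3, 7.8, 7.5, 7.5, 7.6 and 7.6 in PCA+LPS and 7.3, 7.9, 7.5 and 7.6 in PCA+NH3+LPS. For Scn4b, Sham array 1 was highest at 8.7, and Sham array 3 and PCA+NH3 array 4 were lowest at 6.8. Its correlation with the brainstem marker mean was 0.65 (permutation p = 0.00079, adjusted p = 0.0076, Spearman 0.57, permutation p = 0.0037, adjusted p = 0.065), and 0.33 without the 2 arrays richest in those markers, so this relation rests on the arrays rich in them.

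Scn4b and Cacna1g varied in opposite directions. Across the 24 arrays the correlation was -0.87 (permutation p = 1e-05, the smallest that 100000 permutations can give, adjusted p = 0.0013 over 666 pairs, Spearman -0.78, adjusted p = 0.0067). It was -0.92 after the group means were removed, -0.93 after the means of the array numbers were removed as well, -0.80 without Sham arrays 1 and 3, and -0.82 without the 3 arrays rich in brainstem markers. Among 18160 genes ranked by their correlation with Scn4b from the lowest, Cacna1g was number 5, and number 8 without those 3 arrays. The correlation was negative in each of these settings. Cacna2d1 had a correlation of -0.86 with Scn4b (permutation p = 1e-05, adjusted p = 0.0013, Spearman -0.74, adjusted p = 0.0067) and Cacnb3 of -0.76 (permutation p = 5e-05, adjusted p = 0.0042, Spearman -0.74, adjusted p = 0.0076). Without Sham arrays 1 and 3 these were -0.76 and -0.57.

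**Figure D4:**
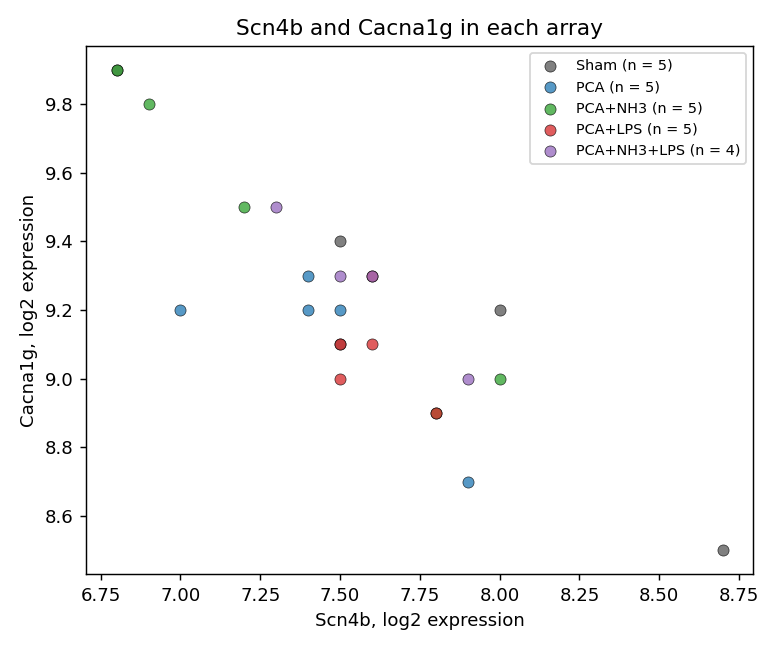
Each point is an array, with the log2 value of Scn4b on the horizontal and of Cacna1g on the vertical axis, coloured by group. Points that coincide look darker. Sham array 1 lies at 8.7 and 8.5, and Sham array 3 and PCA+NH3 array 4 coincide at 6.8 and 9.9. All 5 groups lie along the same falling band.

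In all, 48 of the 666 pairs of channel genes had an adjusted permutation p under 0.05 for Pearson's correlation, 31 positive and 17 negative. The permutations are a random draw, and this count lay between 48 and 58 over 5 draws. A correlation of at least 0.583 in size, the smallest among the 48, was found in 7.51% of the channel pairs and in 2.12% of all pairs of the 18161 genes. Pairs share genes, and the channel genes were not matched with other genes on their level, so these shares are descriptions. Cacna1a of the P/Q-type channel went with Cacng2 at 0.81 (permutation p = 1e-05, adjusted p = 0.0013, Spearman 0.77, adjusted p = 0.0067) and with Cacna1c at 0.78 (permutation p = 1e-05, adjusted p = 0.0013, Spearman 0.79, adjusted p = 0.0067). Without the 2 arrays farthest from the median of the partner, these were 0.69 and 0.77. Cacna1g went with Cacnb3 at 0.79 (permutation p = 3e-05, adjusted p = 0.0033, Spearman 0.76, adjusted p = 0.0067) and at 0.68 without Sham arrays 1 and 3. The neighbours Scn2b and Scn4b had a correlation of -0.45 (permutation p = 0.031, adjusted p = 0.17, Spearman -0.25, adjusted p = 0.63), which was -0.07 without Sham arrays 1 and 3. Scn2b read 9.3, 10.2, 10.2, 10.2 and 10.2 in Sham and 10.3, 10.2, 9.5, 10.1 and 10.3 in PCA. For Scn2b the values were 10, 10, 10.1, 10 and 9.8 in PCA+NH3, 10.3, 10.2, 10.1, 10.2 and 10 in PCA+LPS and 10.3, 10, 9.9 and 9.9 in PCA+NH3+LPS. Sham array 1 and PCA array 3 lay at 9.3 and 9.5 for Scn2b, and all other arrays between 9.8 and 10.3. The correlation of Scn2b with Cacna1h was -0.74 (permutation p = 0.00023, adjusted p = 0.014, Spearman -0.53, adjusted p = 0.13) and -0.34 without those 2 arrays, so that relation rests on them.

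Each channel gene was also set against the mean of 7 lists of cell type markers, which made 259 relations. With an adjusted permutation p under 0.05, 11 genes were positively and 5 negatively correlated with the granule cell mean, 8 and 4 with the Purkinje cell mean, and 5 and 11 with the brainstem mean. For myelin markers these counts were 5 and 10, for Bergmann glia and astrocytes 5 and 9, for microglia 2 and 7, and for choroid plexus 0 and 1. Such relations were common over all genes. A correlation of at least 0.486 in size, the smallest among those counted, was held with the granule cell mean by 43.2% of the channel genes and by 24% of all genes other than the markers. These shares were 37.8% and 21.4% for the Purkinje cell mean, 43.2% and 22.2% for the brainstem mean, and 40.5% and 20.3% for the myelin mean. They were 37.8% and 18.5% for Bergmann glia and astrocytes, 24.3% and 10.6% for microglia, and 2.7% and 3.44% for choroid plexus. Genes are not independent over the same arrays, so no test of these shares was made. Cacna1a had a correlation of 0.82 with the granule cell mean (permutation p = 3e-05, adjusted p = 0.0015, Spearman 0.71, adjusted p = 0.014), and 0.56 without Sham array 1 and PCA array 3. Scn2b had a correlation of 0.88 with the Purkinje cell mean (permutation p = 1e-05, adjusted p = 0.0015, Spearman 0.69, adjusted p = 0.019), and 0.60 without the same 2 arrays. The marker means of granule and Purkinje cells were lowest in Sham array 1, at -0.57 and -0.50, and next lowest in PCA array 3, at -0.28 and -0.29. Whether the makeup of the dissected tissue accounts for these relations was not tested.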

How the data were processed

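RNA of rat cerebellum was labelled with the WT Plus kit and hybridised to 24 Affymetrix arrays, per the labels. The log2 values deposited by the authors were made with RMA, which corrects background, normalizes by quantiles and summarises probe sets, per the submitters' processing notes. Neither its version nor the annotation build was stated there. The series matrix held the same deposited log2 values, with 0 differences. Arrays have no read depth, and their number limits precision.

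Of 29016 probe sets, 19338 had 1 symbol, 1521 several and 8157 none. Symbols were updated through RefSeq synonyms (14126 current, 3362 updated, 1850 kept), and the probe set of highest mean was kept for each of 18161 genes. limma 3.58.1 in R 4.3.3 fitted 1 mean per group over all arrays without covariates (19 residual and 4.39 prior degrees of freedom). Two-sided p-values were adjusted over the 18161 genes by Benjamini and Hochberg's method, with a threshold of 0.05. The script was tested on simulated data. Values of some single genes are not reported here, and counts include all 37 members. Correlations across arrays used 100000 permutations. The members, the gene lists, the contrasts and the rule that gives array values for the 4 channel genes of smallest p in each contrast and names up to 3 partners were chosen with earlier results of these data known. Scn4b, Scn2b, Cacng7, Cacnb1 and the arrays rich in brainstem markers were singled out after their values were seen. Alternatives were another probe set summary, a filter on dim genes, other normalizations, empirical Bayes settings, array weights, fewer groups in the fit, a replicate block, and fits without single arrays or arrays rich in other tissues' markers.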

Additional observations from a re-analysis of the deposited data

Results flagged for a closer look

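In 17 of the 185 combinations of a channel gene and a group, 1 array lay far from the others of its group relative to the group's range (Dixon's criterion at 95%). Chance alone would mark about 1 in 20 if the values were not rounded. With values in steps of 0.1, a gap of a single step can be enough, so that rate need not hold here. The criterion was not applied to all genes, so whether 17 is many for these arrays cannot be told. PCA array 3, rich in brainstem markers, was marked in 4 genes, with Cacna1g at 8.7 (others 9.2 to 9.3), Cacnb4 at 11.0 (others 11.2), Cacng2 at 9.9 (others 10.2 to 10.3) and Scn2b at 9.5 (others 10.1 to 10.3). Sham array 1, also rich in these markers, was marked for Scn2b at 9.3 (others 10.2) and Scn3a at 5.8 (others 5.1 to 5.3), and PCA+NH3 array 1 for Scn3b at 7.0 (others 5.4 to 5.8).

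Among the other arrays, PCA+LPS array 3 stood at 5.6 for Cacna1h (others 5.1 to 5.2) and at 4.4 for Cacng1 (others 4.3). PCA+LPS array 4 stood at 8.7 for Cacnb3 (others 9.0) and PCA+LPS array 5 at 9.1 for Scn8a (others 9.0). PCA+NH3 array 3 stood at 8.3 for Cacna1b (others 8.4) and PCA+NH3 array 4 at 3.7 for Scn10a (others 3.3 to 3.4). Sham array 5 stood at 3.3 for Cacng6 (others 3.8 to 3.9). In PCA+NH3+LPS, array 1 stood at 8.6 for Cacna1b (others 8.4), array 2 at 10.0 for Cacng2 (others 10.2) and array 3 at 3.4 for Cacng6 (others 4.0).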

How the results depend on the processing

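The count of channel genes past the adjusted threshold was 0 in each comparison under each of the alternatives and with any single array left out, and no named difference changed its sign. Their sizes were less stable. Of 44 named differences, none of which passed the adjusted threshold, leaving out 1 array moved 23 by over 1.5 times, and the other alternatives moved 18. Counts at an unadjusted p under 0.05 are small, so single genes moved them. The share of all genes under 0.05 in either direction moved too. For PCA+NH3 against PCA it was 7.57% without the arrays rich in brainstem markers. With the replicate block it was 6%, and without the arrays rich in choroid plexus markers 2.77%. For PCA+NH3 against Sham the first 2 of these settings gave 8.15% and 7.66%. Shares over all genes were not counted with 1 array left out. For PCA+NH3 against PCA, 1 in the report, the count was 0 with genes of mean at least 5, 2 with cyclic loess or median-centred arrays, and 5 with array weights or without the arrays rich in brainstem markers. For the ammonia factor, 2 in the report, it was 1 with the filter, with median centring, with the replicate block (Cacna2d2) and without the arrays rich in choroid plexus markers (Cacna1d, neither of the 2 in the report). For PCA+NH3 against Sham, 4 in the report, it was 1 with only the groups compared and 0 without the choroid plexus arrays. For PCA+LPS against Sham, 1 in the report, it was 2 with median centring and 0 with array weights. For PCA+NH3+LPS against Sham, 0 in the report, it was 2 with array weights or without the brainstem arrays and 1 with the replicate block (Scn7a). For PCA against Sham it was 1 with only the groups compared and 2 without the brainstem arrays, and for all PCA groups against Sham 1 with array weights and 2 without the brainstem arrays. It was 1 for PCA+LPS against PCA with only the groups compared, 1 for PCA+NH3+LPS against PCA without either set of arrays, 1 for the LPS factor in these 3 settings, and 2 for the interaction without the brainstem arrays. The cause was not tested.

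With 1 array left out, this count ranged from 0 to 2 for PCA against Sham, from 1 to 5 for PCA+NH3 against PCA, from 1 to 6 for PCA+NH3 against Sham, from 0 to 2 for PCA+LPS against Sham, from 0 to 2 for PCA+NH3+LPS against Sham, from 0 to 1 for PCA+NH3+LPS against PCA, from 0 to 3 for the ammonia factor, from 0 to 1 for the LPS factor, from 0 to 1 for the interaction and from 0 to 4 for all PCA groups against Sham. The median difference ranged from -0.06 to -0.015 for PCA against Sham and from -0.02 to 0.04 for the interaction. All genes past the adjusted threshold ranged from 1 to 4 for both factors, from 0 to 1 for all PCA groups against Sham, from 0 to 10 for PCA+LPS against Sham, from 0 to 2 for PCA+NH3 against PCA and PCA+LPS against PCA, and from 0 to 1 for PCA+NH3+LPS against PCA.

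The median difference of the channel genes became 0 for PCA+LPS against Sham with the filter. Centring each array on its median gave -0.06 for PCA+NH3 against PCA, -0.04 for PCA+LPS against PCA, 0.125 for the interaction and -0.08 for PCA+NH3 and PCA+LPS against Sham. Leaving out the choroid plexus arrays gave 0.04 for PCA+NH3 against PCA, 0.02 for PCA+NH3 against Sham and -0.023 for the interaction. Over all genes, the adjusted threshold was passed by 1 for PCA+NH3 against PCA with the filter or the trended robust step, and by 3 with array weights or without the brainstem arrays. For PCA+LPS against PCA it was 2 with array weights or without the brainstem arrays, and for PCA+NH3+LPS against PCA 4 and 1. For PCA+NH3+LPS against Sham it was 1 without the brainstem arrays. For the ammonia factor it was 1 with median centring and 0 without the choroid plexus arrays. For the LPS factor it was 1 with only the groups compared or without the choroid plexus arrays. For PCA+LPS against Sham it was 0 with only the groups compared and 3 without the choroid plexus arrays. For all PCA groups against Sham it was 0 with cyclic loess, with array weights and without either set of arrays.

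The replicate block used the sample number of the labels. Same-numbered arrays of different groups had correlations of their deviations between -0.47 and 0.57 with a mean of 0.087, and 23 of 46 exceeded 0.1. The 184 other pairs lay between -0.45 and 0.62 with a mean of -0.019. Of the 24 arrays, 12 matched best with their own number. Not every pair exceeded 0.1 and the labels name nothing shared, so the block was kept as an alternative, but a factor shared by same-numbered arrays was not tested and the p-values of the report do not account for one. With the replicate block, 1 gene in all passed the adjusted threshold for PCA+LPS against PCA and 1 for the ammonia factor. A fit with only the groups compared was not run for all PCA groups against Sham, which uses all groups. Leaving out the brainstem arrays and removing the means of the array numbers from correlations were chosen after seeing the data. Precision is limited by the number of arrays, by the steps of 0.1 and, for the 9 dim genes, by signal.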

Other observations

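Genes whose values followed Scn4b most closely over the 24 arrays were listed after its spread had been seen, so the correlations are descriptions only. The highest were Sv2c, which encodes a synaptic vesicle glycoprotein, at 0.88, Lmo1, which encodes a LIM domain regulator of transcription, at 0.87, Sorcs1, which encodes a sorting receptor, at 0.85, and Mn1 at 0.84. Among the lowest were Dna2, which encodes a DNA helicase and nuclease, at -0.89, Dnajc12 at -0.87 and Cacna1g at -0.87. Without the 3 arrays rich in brainstem markers, Sv2c stood at 0.83, Lmo1 at 0.82 and Dna2 at -0.86. Probe sets whose symbols start with LOC were left out of these names.

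Without those 3 arrays, Scn2b had a difference of -0.25 (SE 0.089, limma adjusted p = 0.49) between PCA+NH3 and PCA and of -0.19 (SE 0.061, limma adjusted p = 0.43) for the ammonia factor. Scn4b had a difference of 0.34 (SE 0.14, limma adjusted p = 0.996) for the LPS factor. All 3 had an unadjusted p under 0.05. In that setting 7.57% of all genes did so for PCA+NH3 against PCA, 7.37% for the ammonia factor and 4.37% for the LPS factor.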
